A study of Rattus norvegicus with 12 samples.

Results

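The tight junction genes described here are 10 genes of the rat table, out of 30957 in all: the claudins Cldn1, Cldn3, Cldn4, Cldn6, Cldn7 and Cldn12, with Ocln, Tjp1, F11r and Epcam. They were chosen by gene name, with their counts in these same 12 libraries already known. Their levels and the differences between groups are therefore given as a description, without p-values. Of these 10, 7 were counted at least once and 5 had enough counts to enter the model over all genes. Messenger RNA was sequenced in 4 groups of 3 libraries that the labels give as rat Schwann cells. Cells alone (Alone) are titled Rsc96 in the labels, taken here as RSC96, an immortalised rat Schwann cell line, and HSC96 in the short descriptions. The second group was co-cultured with monocyte-derived macrophages (MDM, headed PBMC in the table, and marked untreated in the labels' treatment field). The other two groups were co-cultured with tumour-associated macrophages (TAMs) whose induction used 1 of 2 human pancreatic cancer lines, BxPC-3 for the BxTAM group and MIA PaCa-2 for the MiaTAM group. All groups share the Schwann cells, so every comparison concerns 1 cell line at most, and the sources used here give neither the species of the macrophages nor whether they were removed before the RNA was extracted. The design text mentions 3 kinds of TAM, of which the third was not analysed here. Whether the 3 libraries within a group stem from separate cultures is not stated, so p-values measure only the spread between these libraries, which may be technical.

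Tight junctions seal the space between neighbouring cells. Claudins form the strands, and each claudin sets how tightly the strand seals and which ions it lets through; occludin and the junctional adhesion molecules lie beside them in the membrane, and the zonula occludens scaffolds tie all of them to actin. Epcam is a membrane glycoprotein of epithelia that binds Cldn7 and Cldn1 and protects them from degradation. In nerve, perineurial cells join through tight junctions that contain Cldn1, while myelinating Schwann cells use Cldn19 in the junctions within their own sheath.

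Library totals ran from 16555215 to 21506669 counts. The Schwann label was met in part: Ncam1 averaged 107 to 196 CPM (counts relative to the library total, scaled between libraries by the TMM method of edgeR) and Dhh 7.73 to 20.7 CPM, whereas Cdh19 and Mag had no count and Sox10 averaged at most 0.0192 CPM. Of 24 epithelial markers, 8 had no count in any library, among them Krt5, Krt14 and Krt19, and 19 were under 1 CPM in every group. The other 5 were Cdh3, a cadherin, at 94.0 to 128 CPM as group means, Krt7 at 17.6 to 17.97, Cgn at 17.2 to 25.9, Krt8 at 2.93 to 8.22 and Tjp3 at 2.04 to 6.47 CPM. The list summed to 150.3 to 172.4 CPM over the libraries. Ptprc, the pan-leukocyte surface phosphatase, averaged at most 0.0362 CPM. In bulk RNA, a change in the number of cells that express a gene and a change in the RNA per cell cannot be told apart.

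The set was uneven in level. On the per-length scale of the deposited table, fragments per kilobase and per library total (FPKM), Tjp1 stood highest in cells alone at 122 ± 2.39 (SD, n = 3), followed by Cldn12 at 52.6 ± 2.64 and Cldn4 at 9.02 ± 0.0850. These 3 levels did not overlap between the genes in any library. Cldn1 at 0.144 ± 0.0743, Cldn6 at 0.128 ± 0.0518, F11r at 0.0230 ± 0.0225 and Ocln at 0.00291 ± 0.00504 FPKM followed in cells alone, and Cldn1 and Cldn6 did not differ beyond their spread, nor did F11r and Ocln. Among all genes of the table, the mean FPKM of Tjp1 ranked 621 in cells alone and 443 in BxTAM co-culture. Cldn3, Cldn7 and Epcam had no count in any of the 12 libraries; a count of 0 allows a level of up to 0.0136 CPM, taking 3 counts over all 12 libraries as the limit. This limit, and the counting intervals given further on, cover counting error only.

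**Figure D1:**
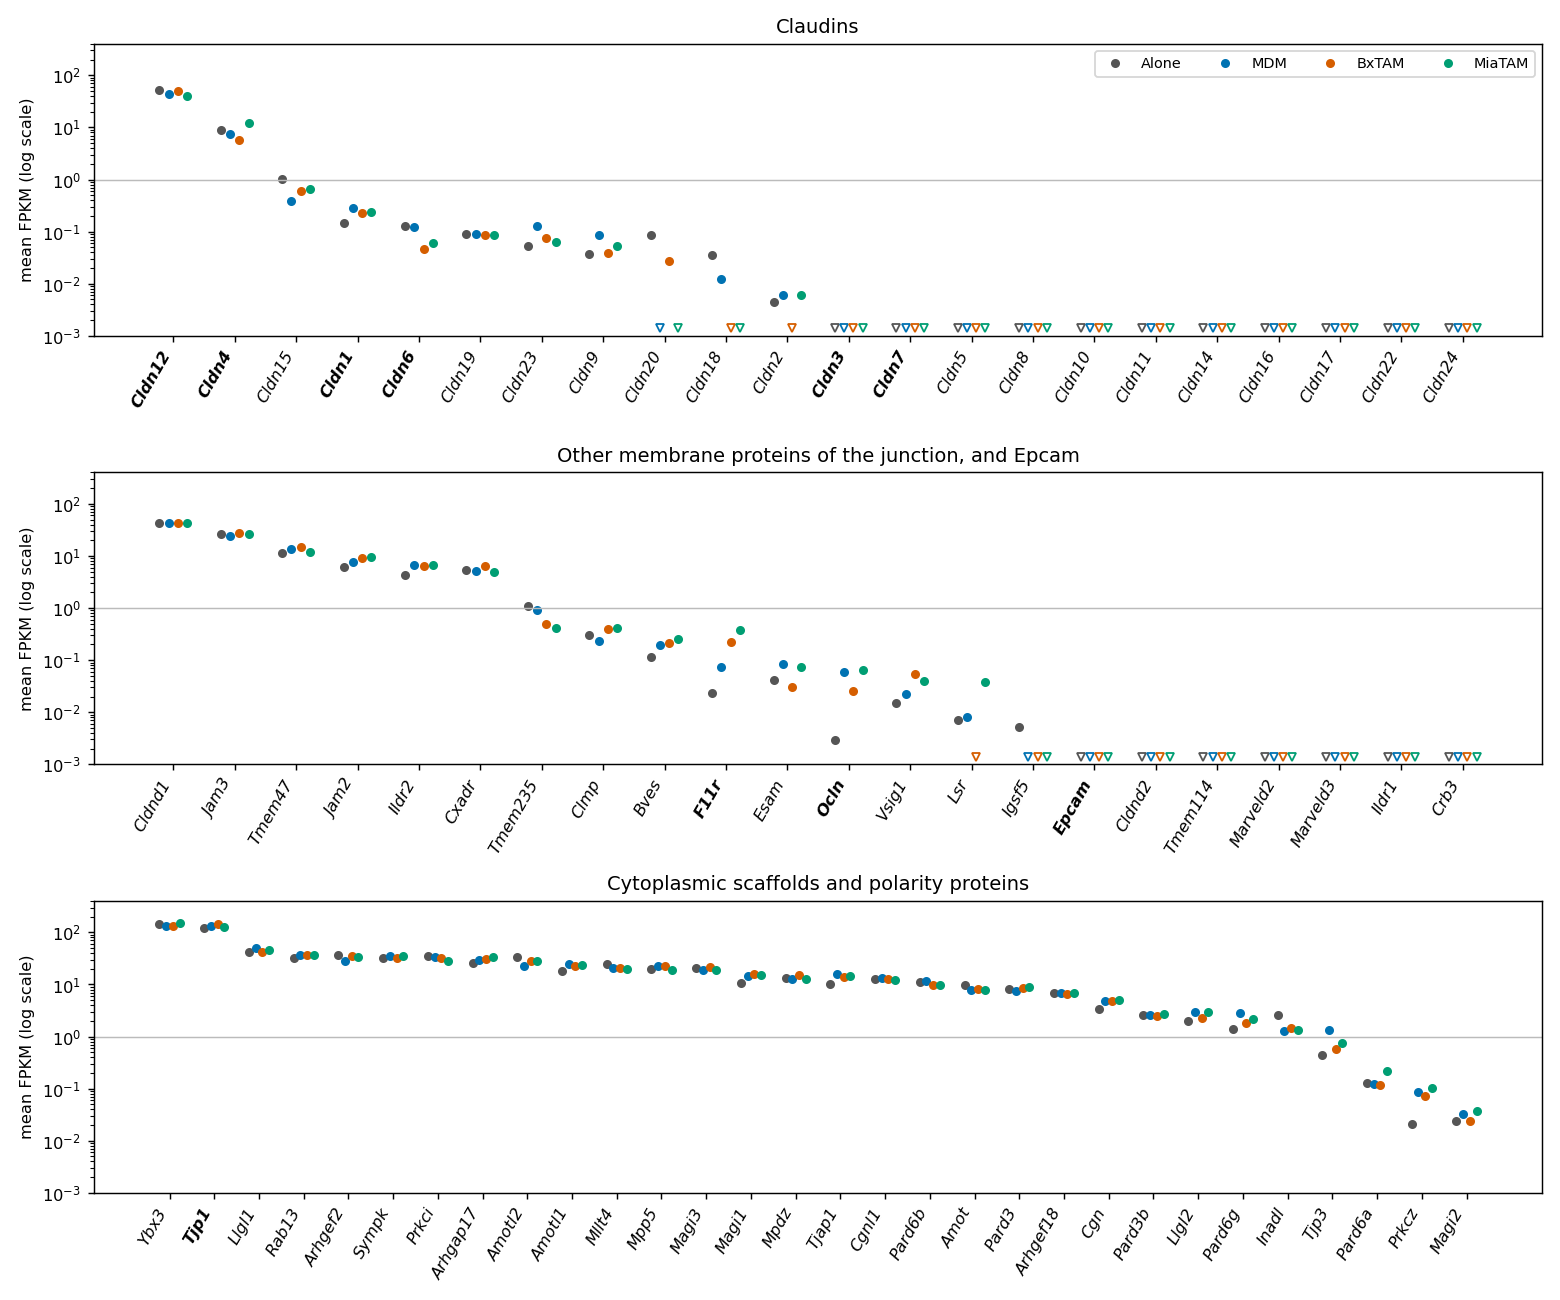
Mean FPKM (log scale) of 22 claudins, of other junction membrane proteins and of junction scaffolds in each of the 4 groups; each point is the mean of 3 libraries, open triangles at the foot mark groups with no count, the grey line marks 1 FPKM, and the genes of the set are in bold. Cldn12 and Cldn4 are the only claudins well above the grey line, and Cldn3, Cldn7 and Epcam lie at the foot in all 4 groups.

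Cldn12 (chromosome 4, 25686392 to 25692547 in Rnor_6.0) encodes a claudin that lacks the usual PDZ-binding tail and is known for paracellular calcium transport in gut. Its scaled counts were 178, 174 and 193 CPM in cells alone, 154, 160 and 144 with MDM, 170, 175 and 169 with BxTAM, and 141, 137 and 143 with MiaTAM. The MiaTAM libraries lay below all others, the MDM libraries came next, and the BxTAM libraries overlapped with cells alone. Against cells alone, Cldn12 was lower by 0.37 ± 0.05 on the log2 scale with MiaTAM (1.29-fold; SE, edgeR fit over all 12 libraries) and by 0.25 ± 0.05 with MDM. The difference between BxTAM and cells alone was -0.08 ± 0.04. Between the 2 TAM kinds, Cldn12 was 1.22-fold lower with MiaTAM.

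Cldn4 (chromosome 12, 24761210 to 24763005) encodes a claudin of tight epithelia that limits sodium leak and serves as a receptor for a clostridial enterotoxin. Its scaled counts were 16.0, 16.2 and 16.0 CPM in cells alone, 12.5, 13.6 and 14.1 with MDM, 10.03, 10.5 and 10.2 with BxTAM, and 21.3, 23.4 and 21.1 with MiaTAM. No 2 of the 4 groups overlapped, and the order from low to high was BxTAM, MDM, cells alone, MiaTAM. Cldn4 was thus the 1 gene of the set whose 2 TAM groups lay on opposite sides of both cells alone and MDM. The difference between MiaTAM and BxTAM was 1.10 ± 0.08 on the log2 scale (2.14-fold). Against cells alone, Cldn4 was 1.36-fold higher with MiaTAM, 1.57-fold lower with BxTAM and 1.20-fold lower with MDM. Each of these values kept its sign under every alternative run.

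**Figure D2:**
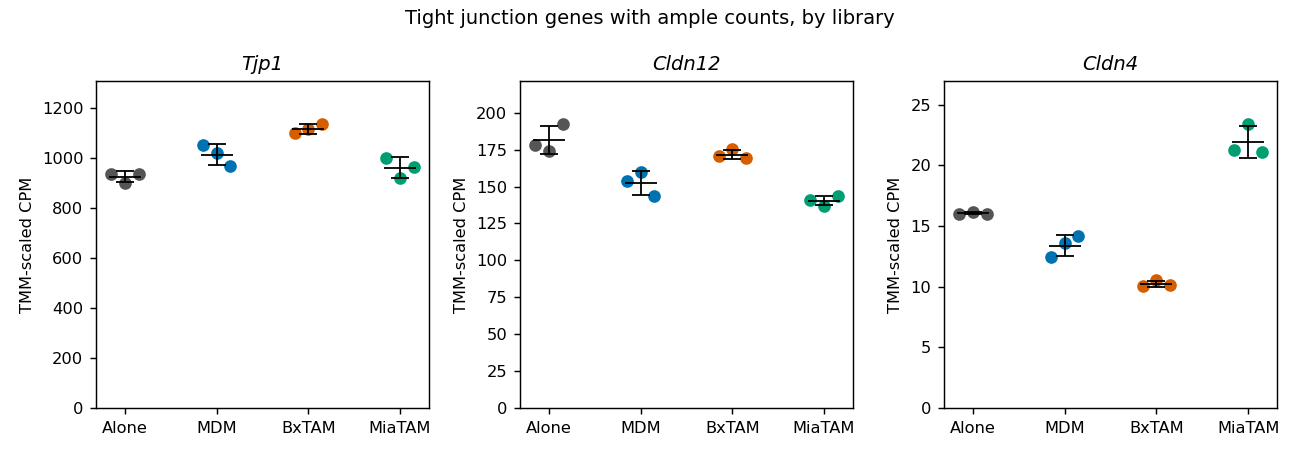
TMM-scaled CPM of Tjp1, Cldn12 and Cldn4 in each library (points), with the mean and SD of the 3 libraries of a group (bars); axes start at 0. Cldn4 separates all 4 groups, with BxTAM at 10.03 to 10.5 and MiaTAM at 21.1 to 23.4 CPM, while Tjp1 is highest with BxTAM and Cldn12 is lowest with MiaTAM.

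Of the 22 claudins in the table, 11 had a count, and Cldn12 and Cldn4 made up nearly all of the claudin messenger RNA per length. The summed FPKM of all claudins was 63.3 ± 2.38 in cells alone, 51.9 ± 1.63 with MDM, 56.1 ± 0.979 with BxTAM and 53.7 ± 0.155 with MiaTAM (SD, n = 3). Cldn4 took 14.3% ± 0.624 of that sum in cells alone, 14.2% ± 1.19 with MDM, 10.2% ± 0.104 with BxTAM and 22.7% ± 1.36 with MiaTAM. Cells alone and MDM therefore had the same share of Cldn4 within their spread, since Cldn4 and Cldn12 were lower with MDM by similar steps. The FPKM ratio of Cldn12 to Cldn4 was 8.65 ± 0.103 with BxTAM and 3.31 ± 0.262 with MiaTAM, against 5.83 ± 0.33 in cells alone.

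**Figure D3:**
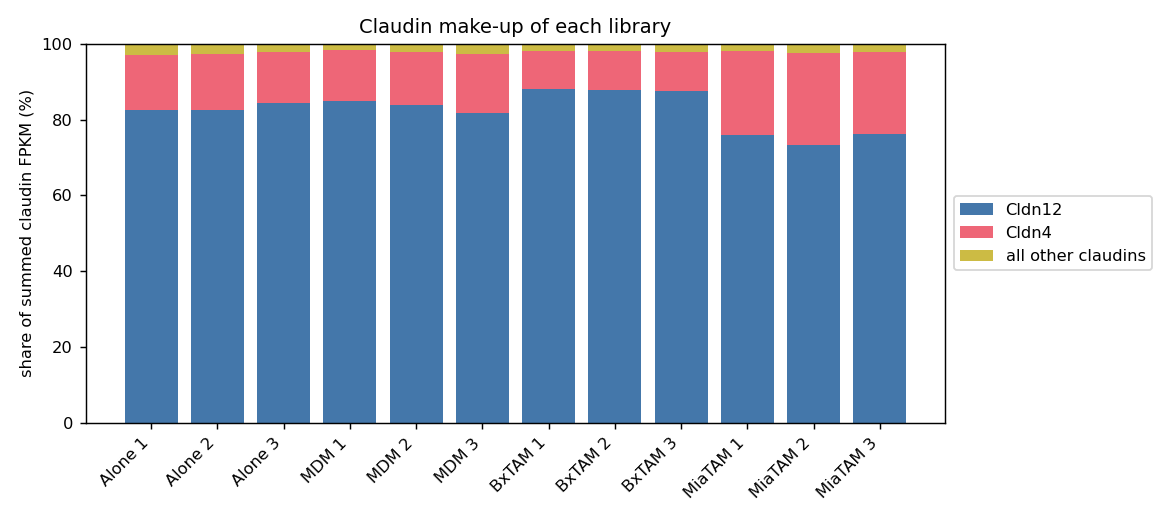
Share of the summed FPKM of all claudins (percent, vertical axis) that Cldn12, Cldn4 and the remaining claudins took in each of the 12 libraries (stacked bars). The Cldn4 band is widest in the 3 MiaTAM libraries (22.7% on average) and narrowest in the 3 BxTAM libraries (10.2%).

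Cldn1 (chromosome 11, 77815181 to 77830416), the claudin of skin barrier and perineurium, had few counts. The counts were 12, 4 and 10 in cells alone, 10, 14 and 31 with MDM, 17, 18 and 5 with BxTAM, and 12, 14 and 16 with MiaTAM. All groups overlapped, and 1 MDM library held the highest value. Cldn1 reached the filter on low counts in 1 library of cells alone, 3 with MDM, 2 with BxTAM and 3 with MiaTAM. Its entry into the model thus rested mostly on co-culture libraries. The log2 difference between MDM and cells alone was 1.05 ± 0.45, and it ranged from 0.56 to 1.40 with 1 library left out, lowest without MDM replicate 3. That difference passed the threshold with all libraries and lost it in 8 of the 12 fits that left out 1 library, under the DESeq2 Wald test, under limma and with a replicate block. Other perineurial markers were present, with Slc2a1, a glucose transporter, at 599 to 885 CPM and Itgb4, an integrin of basal contacts, at 194 to 273 CPM, while Lypd2 had no count.

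Cldn6 (chromosome 10, 13000090 to 13002862), a claudin of embryonic epithelia, had 11 counts in cells alone, 11 with MDM, 4 with BxTAM and 5 with MiaTAM, each summed over 3 libraries. The ratio of BxTAM to cells alone was 0.375 with a 95% counting interval of 0.0872 to 1.27, so no difference was detectable at this depth. Cldn9, which lies 0.149 kb from Cldn6, had 17 counts over all libraries. Tnfrsf12a and Hcfc1r1, the 2 nearest genes on the other side of Cldn6, had 32306 and 18636 counts.

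Cldn3 (chromosome 12, 21831342 to 21832813) and Cldn7 (chromosome 10, 56576428 to 56578626), both claudins of simple epithelia, and Epcam (chromosome 6, 11282216 to 11298180) were at 0 throughout. RefSeq's GRCr8 annotation puts Cldn3 and Cldn4 next to each other with only 2 pseudogenes between them, whereas the Rnor_6.0 coordinates given here for the table's genes place them apart on chromosome 12. Whether that difference between assemblies bears on the 0 of Cldn3 was not tested. Elp5, which lies 0.359 kb from Cldn7, had 12793 counts, and its log2 difference between MDM and cells alone was -0.10.

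The promoters of 5 genes of the set are shown because these genes had no count (Cldn3, Cldn7, Epcam) or nearly none in cells alone (Ocln, F11r). Each run is the 250 bases before the 1 start that RefSeq's GRCr8 table gives per gene, 5′ to 3′ on the gene's strand. Capitals mark CAGGTG or its reverse complement CACCTG, the E-box form that Snail and Zeb repressors of junction genes are known to bind, and TGACTCA or TGAGTCA, the AP-1 element. The positions are chr12:27346548-27346797 on the minus strand for Cldn3, chr10:55188420-55188669 on the plus strand for Cldn7, chr6:12649679-12649928 on the minus strand for Epcam, chr2:33441199-33441448 on the minus strand for Ocln and chr13:86405979-86406228 on the plus strand for F11r.
Cldn3: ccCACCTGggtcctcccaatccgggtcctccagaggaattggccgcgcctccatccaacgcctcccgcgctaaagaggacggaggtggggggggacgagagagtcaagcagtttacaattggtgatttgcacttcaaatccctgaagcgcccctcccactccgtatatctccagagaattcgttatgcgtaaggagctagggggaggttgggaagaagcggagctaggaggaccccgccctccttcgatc
Cldn7: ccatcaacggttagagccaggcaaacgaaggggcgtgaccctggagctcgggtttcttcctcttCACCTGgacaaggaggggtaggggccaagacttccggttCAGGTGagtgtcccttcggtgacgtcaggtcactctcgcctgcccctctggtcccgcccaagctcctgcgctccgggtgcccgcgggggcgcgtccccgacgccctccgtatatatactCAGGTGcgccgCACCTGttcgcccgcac
Epcam: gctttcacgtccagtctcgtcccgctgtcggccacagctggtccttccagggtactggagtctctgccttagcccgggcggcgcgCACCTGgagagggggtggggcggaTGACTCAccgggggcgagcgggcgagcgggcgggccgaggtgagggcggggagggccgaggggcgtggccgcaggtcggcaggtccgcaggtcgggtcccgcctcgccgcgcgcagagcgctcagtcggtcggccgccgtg
Ocln: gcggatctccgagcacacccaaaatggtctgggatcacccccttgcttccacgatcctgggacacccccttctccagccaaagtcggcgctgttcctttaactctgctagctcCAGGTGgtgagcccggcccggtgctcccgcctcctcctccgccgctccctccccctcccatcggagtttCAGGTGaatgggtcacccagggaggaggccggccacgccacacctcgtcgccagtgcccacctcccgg
F11r: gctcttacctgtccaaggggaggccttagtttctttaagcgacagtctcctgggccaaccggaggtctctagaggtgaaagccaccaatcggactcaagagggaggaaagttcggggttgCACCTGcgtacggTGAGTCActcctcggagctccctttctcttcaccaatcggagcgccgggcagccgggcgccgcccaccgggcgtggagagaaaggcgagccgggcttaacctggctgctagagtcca

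Cldn7 held 4 of these E-box matches, Cldn6 3, Ocln 2, and Cldn3, F11r and Epcam 1 each. Cldn1, Cldn12 and Tjp1 held none, and for Cldn12, Tjp1, Ocln and Cldn6 the start used lies inside the RefSeq gene span, so other starts were not covered. Of all 27457 promoters of the same length, 15.65% held at least 1 match and 1.78% held 2 or more. The AP-1 element stood in F11r and Epcam, and in 3.98% of all promoters. Cldn4 was the 1 gene without a promoter entry. G and C made up 36.4% of the Cldn12 run and 30.4% of the Tjp1 run. They made up 59.2% to 75.6% of the runs of the other matched genes, and the median over all promoters was 52.0%. The runs with and without matches thus differ in base content too. A match is a description of the letters, not evidence that a factor was bound.

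Snail and Zeb genes were themselves present. Zeb1 averaged 119 to 135 CPM and Zeb2 73.3 to 87.8 CPM, while Snai1 rose from 6.07 CPM in cells alone to 9.81 with MDM, 9.09 with BxTAM and 9.71 with MiaTAM. The log2 changes of Snai1 were 0.69 ± 0.12, 0.59 ± 0.12 and 0.68 ± 0.12 (quasi-likelihood test in edgeR, Benjamini-Hochberg adjusted p over all genes = 3.01e-05, 0.000245 and 4.03e-05). Zeb2 was 1.19-fold lower with MiaTAM than with BxTAM (edgeR, adjusted p = 0.000203), and Zeb1 was 1.13-fold lower (adjusted p = 0.00336). Of the 20 listed regulators of claudins, 12 were tested, and 4, 6 and 6 of them were higher than in cells alone with MDM, BxTAM and MiaTAM, with 2, 0 and 2 lower. Of all 12360 tested genes, 32.0% were higher and 33.1% lower with MDM, 30.0% and 30.9% with BxTAM, and 31.4% and 33.7% with MiaTAM, and every count against cells alone is read beside these shares. With MDM, 4 of 12 is near that background. No conclusion about the list is drawn from the counts of 6 with BxTAM and with MiaTAM. The 4 with MDM were Grhl2, Snai1, Twist1 and Wnk4, and the lower ones were Klf4 and Wnk1 with MDM and Zeb1 and Wnk1 with MiaTAM. Wnk4, a kinase known to phosphorylate claudins, rose 3.45-fold, 2.84-fold and 3.83-fold in that order (edgeR, adjusted p = 2.12e-05, 0.000252 and 7e-06). Its close relative Wnk1 was 1.22-fold lower with MiaTAM than with BxTAM (edgeR, adjusted p = 9.73e-05). Grhl2, an activator of Cldn4 and of other epithelial genes, stayed under 1 CPM in every group, at 0.215 CPM in cells alone, 0.563 with MDM, 0.504 with BxTAM and 0.741 with MiaTAM, and passed the filter only through co-culture libraries. Values of the regulators stand beside those of the claudins here, and a link between them was not tested.

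Ocln (chromosome 2, 30527715 to 30577218) encodes occludin, a 4-pass membrane protein of the strands that regulates their stability. Its counts were 0, 1 and 0 in cells alone, 7, 5 and 8 with MDM, 2, 3 and 3 with BxTAM, and 9, 8 and 4 with MiaTAM. Every co-culture library was above every library of cells alone, the BxTAM libraries were below both other co-cultures, and MDM and MiaTAM overlapped. Against the single count in cells alone, the ratio was 19.9 with MDM, with a 95% counting interval of 3.18 to 823. It was 21.7 with MiaTAM (3.49 to 897) and 8.26 with BxTAM (1.11 to 367). BxTAM stood at 0.416 of MDM (0.158 to 0.986), and MiaTAM at 1.09 of MDM (0.563 to 2.12). Between the TAM kinds, MiaTAM stood at 2.63 of BxTAM (1.12 to 6.855). No library reached the filter on low counts, so Ocln did not enter the model over all genes. Marveld2 and Marveld3, the other members of the occludin family, had no count, and Gtf2h2, which lies 4.99 kb from Ocln, had 6303.

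F11r (chromosome 13, 89826254 to 89850612) encodes junctional adhesion molecule A, an immunoglobulin-like protein that helps place the junction and is also carried by leukocytes, platelets and endothelium. Its counts were 1, 0 and 2 in cells alone, 4, 2 and 4 with MDM, 11, 11 and 7 with BxTAM, and 16, 15 and 18 with MiaTAM. On the scaled CPM the 4 groups did not overlap, although 1 library of cells alone and 1 MDM library had the same count of 2. Against the 3 counts in cells alone, the ratio was 16.9 with MiaTAM (95% counting interval 5.44 to 84.6), 9.98 with BxTAM (3.09 to 51.2) and 3.31 with MDM (0.852 to 18.7). Against MDM, F11r was 5.10 times as high with MiaTAM (2.55 to 11.3) and 3.02 times with BxTAM (1.43 to 6.94). MiaTAM stood at 1.69 of BxTAM, with a counting interval of 1.05 to 2.78. Only the BxTAM and MiaTAM libraries carried F11r past the filter (2 and 3 libraries), so its entry into the model depended on the groups where it was high. RefSeq lists a pseudogene of F11r on another chromosome, and whether reads were shared with it was not tested.

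**Figure D4:**
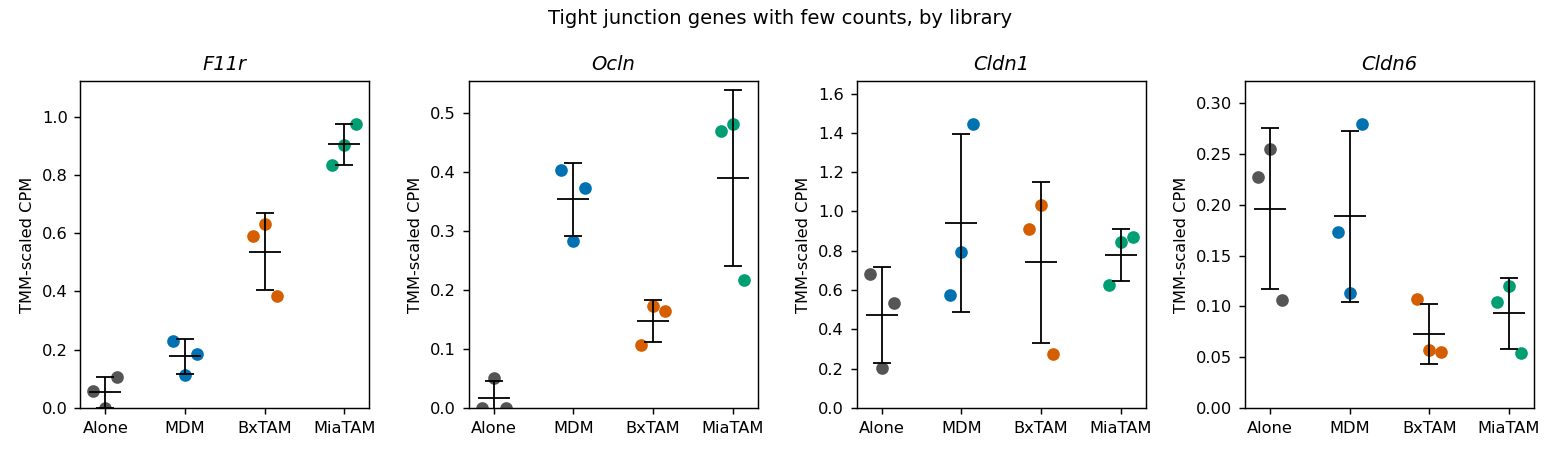
TMM-scaled CPM of F11r, Ocln, Cldn1 and Cldn6 in each library (points), with the mean and SD of the 3 libraries of a group (bars, not drawn below 0); vertical scales differ between panels. F11r steps up from cells alone over MDM and BxTAM to MiaTAM, Ocln is near 0 in cells alone, and Cldn1 and Cldn6 overlap between groups.

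Markers of macrophages were higher in sum in all 3 co-cultures. Of 22 such genes, 2 (C1qa and Tyrobp) had no count and 16 were under 1 CPM in every group. The summed level of the list was 28.0 to 31.2 CPM in cells alone, 63.0 to 69.2 with MDM, 60.2 to 62.0 with BxTAM and 66.8 to 70.8 with MiaTAM. The BxTAM libraries were below the MDM libraries in this sum. Of the 7 tested macrophage genes, 6 were higher than in cells alone in each co-culture, beside 30.0% to 32.0% of all tested genes. Cd68 averaged 0.416 CPM in cells alone, under the filter at 0.544 CPM, so its entry into the model needed co-culture libraries, where it was high. The count of 6 is therefore a description. Itgax, an integrin of myeloid cells, carried most of the sum, at 17.2, 46.2, 37.6 and 41.4 CPM in cells alone, MDM, BxTAM and MiaTAM. Csf1r, the receptor for macrophage colony-stimulating factor, was at 3.34, 5.68, 7.70 and 9.25 CPM, rising in the order of the F11r means. The means of Cd14 (4.43, 6.38, 6.97 and 7.35 CPM) and Lcp1 (1.56, 3.62, 3.97 and 4.41) rose in the same order. So did those of Cd74 (0.963, 2.10, 2.20 and 2.77 CPM) and Cd68 (0.416, 1.10, 1.16 and 1.87). For these genes other than Csf1r, BxTAM and MDM did not differ beyond their spread. Between MiaTAM and BxTAM, Csf1r, Cd14, Lcp1 and Cd74 did not pass the threshold in edgeR. Their log2 differences were 0.26 ± 0.11, 0.07 ± 0.13, 0.15 ± 0.14 and 0.32 ± 0.24 in that order. Only Cd68 passed there, at 0.68 ± 0.23. The shared order is thus one of means, and most of its single steps were not resolved. Itgam, also tested, was at 0.375, 0.323, 0.611 and 0.402 CPM. Lyz2, a lysozyme of macrophages, was at 0.323, 0.409, 0.167 and 0.149 CPM, and Fcer1g at 0.177, 0.187, 0.113 and 0.0890. Endothelial markers summed to 64.5 to 67.8 CPM in cells alone, 63.6 to 63.7 with MDM, 77.4 to 79.0 with BxTAM and 87.9 to 92.8 with MiaTAM. Of these 11 genes, 2 (Cldn5 and Emcn) had no count and 6 were under 1 CPM in every group. Flt1, a receptor for vascular endothelial growth factor, made up most of that sum at 44.2, 37.5, 53.0 and 61.9 CPM. Vwf was at 4.36, 10.96, 9.10 and 9.82 CPM and Egfl7 at 10.9, 11.7, 11.9 and 12.4. Kdr, the other such receptor listed, was at 2.27, 0.873, 0.770 and 1.54 CPM and Tek at 3.76, 2.02, 3.06 and 3.28. The part of other cells in the F11r and Ocln values was not tested.

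Beside Ocln and F11r, the table holds 15 other genes of junction membrane proteins, of which 6 were tested. With MDM, BxTAM and MiaTAM, 3, 4 and 2 were higher than in cells alone, and 0 were lower. Over all tested genes 32.0%, 30.0% and 31.4% were higher and 33.1%, 30.9% and 33.7% lower. Nothing about these 6 is read from the counts. The genes that were higher are named next. These were Jam2, Ildr2 and Tmem47 with MDM, the same 3 and Cxadr with BxTAM, and Jam2 and Ildr2 with MiaTAM. Jam2, a relative of F11r, rose in all 3, from 24.2 CPM to 30.0, 36.2 and 36.7 (log2 0.31 ± 0.07, 0.58 ± 0.07 and 0.60 ± 0.07; edgeR, adjusted p = 0.000503, 2.83e-07 and 1.53e-07). Jam2 was also 1.21-fold higher with BxTAM and 1.22-fold higher with MiaTAM than with MDM (edgeR, adjusted p = 0.00346 and 0.00153). Jam3, the third of these adhesion molecules, was at 46.6 to 52.9 CPM and passed only between BxTAM and MDM, at a log2 of 0.18 ± 0.06 (edgeR, adjusted p = 0.0198). Ildr2, a protein of the angulin family of tricellular contacts, rose by 0.66 ± 0.11, 0.59 ± 0.11 and 0.65 ± 0.11 on the log2 scale with MDM, BxTAM and MiaTAM (edgeR, adjusted p = 3.17e-05, 0.00016 and 3.86e-05). Cxadr, the coxsackie and adenovirus receptor, was 1.32-fold lower with MiaTAM than with BxTAM (edgeR, adjusted p = 0.00397). Tmem47, a claudin-like membrane protein, was 1.29-fold lower in that comparison (adjusted p = 0.00129).

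The other claudins and claudin-like genes of the table numbered 20, and 3 of them were tested. Cldn15, a pore-forming claudin of gut, was the claudin next in level after Cldn4, at 2.05 CPM in cells alone. It fell 2.56-fold with MDM, 1.66-fold with BxTAM and 1.59-fold with MiaTAM (edgeR, adjusted p = 8.51e-05, 0.0101 and 0.0156). Tmem235, a claudin-like gene named here after its values were seen, had 38 counts in cells alone, 33 with MDM, 17 with BxTAM and 14 with MiaTAM. It entered the model only through libraries of cells alone and MDM, since no BxTAM or MiaTAM library was above 0.440 CPM and the filter stood at 0.544 CPM, and its differences are given without a test. Cldnd1, a claudin-domain gene, was at 85.6 to 88.0 CPM and passed in no comparison. Cldn19, the claudin of myelinating Schwann cells, was at 0.149 to 0.160 CPM in all 4 groups.

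Tjp1 (chromosome 1, 126146489 to 126227469) encodes ZO-1, the scaffold that binds claudins, occludin and junctional adhesion molecules and links them to actin; it also occurs at the junctions of cells without tight junctions. Its scaled counts were 936, 898 and 936 CPM in cells alone, 1049, 1019 and 967 with MDM, 1097, 1116 and 1137 with BxTAM, and 1001, 920.0 and 962 with MiaTAM. The BxTAM libraries lay above all others, the MDM libraries lay above cells alone, and the MiaTAM libraries overlapped with both MDM and cells alone. The log2 difference from cells alone was 0.27 ± 0.04 with BxTAM, 0.13 ± 0.04 with MDM and 0.06 ± 0.04 with MiaTAM. Between the TAM kinds, Tjp1 was 1.16-fold lower with MiaTAM (log2 -0.22 ± 0.04). Upper-quartile scaling kept these signs and moved the difference between MiaTAM and cells alone to 0.13, past the threshold.

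Tjp3, a paralog of Tjp1 that encodes the epithelial ZO-3, was far lower in level and did not follow the group order of Tjp1. It was at 2.04 CPM in cells alone, and rose 3.17-fold with MDM (edgeR, adjusted p = 1.6e-08). It was 2.38-fold lower with BxTAM and 1.84-fold lower with MiaTAM than with MDM (edgeR, adjusted p = 2.37e-06 and 6.95e-05).

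Of 30 scaffold and polarity genes in the table beside Tjp1, with Tjp3 among them, 28 were tested. Of these, 13 were higher and 8 lower with MDM than alone. With BxTAM 7 were higher and 7 lower, and with MiaTAM 12 were higher and 9 lower. Over all tested genes the shares were 32.0% and 33.1%, 30.0% and 30.9%, and 31.4% and 33.7% in the same order, and nothing about the list is read from its counts. Magi1, a scaffold with several PDZ domains, rose 1.39-fold, 1.47-fold and 1.46-fold (edgeR, adjusted p = 2.13e-08, 2.65e-09 and 3.17e-09). Cgn, encoding cingulin, which joins ZO-1 to myosin, rose 1.41-fold, 1.44-fold and 1.51-fold (edgeR, adjusted p = 1.92e-05, 1.34e-05 and 2.17e-06). Inadl, encoding the polarity scaffold PATJ, fell 1.97-fold, 1.76-fold and 1.92-fold (edgeR, adjusted p = 3.68e-09, 6.02e-08 and 7.13e-09). Tjap1, a junction-associated protein, rose 1.57-fold with MDM, 1.34-fold with BxTAM and 1.41-fold with MiaTAM (edgeR, adjusted p = 8.84e-10, 8.01e-07 and 5.8e-08). Amotl2, an angiomotin-like protein, fell 1.45-fold, 1.22-fold and 1.20-fold in the same order (edgeR, adjusted p = 2.22e-09, 1.88e-05 and 3.54e-05).

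**Figure D5:**
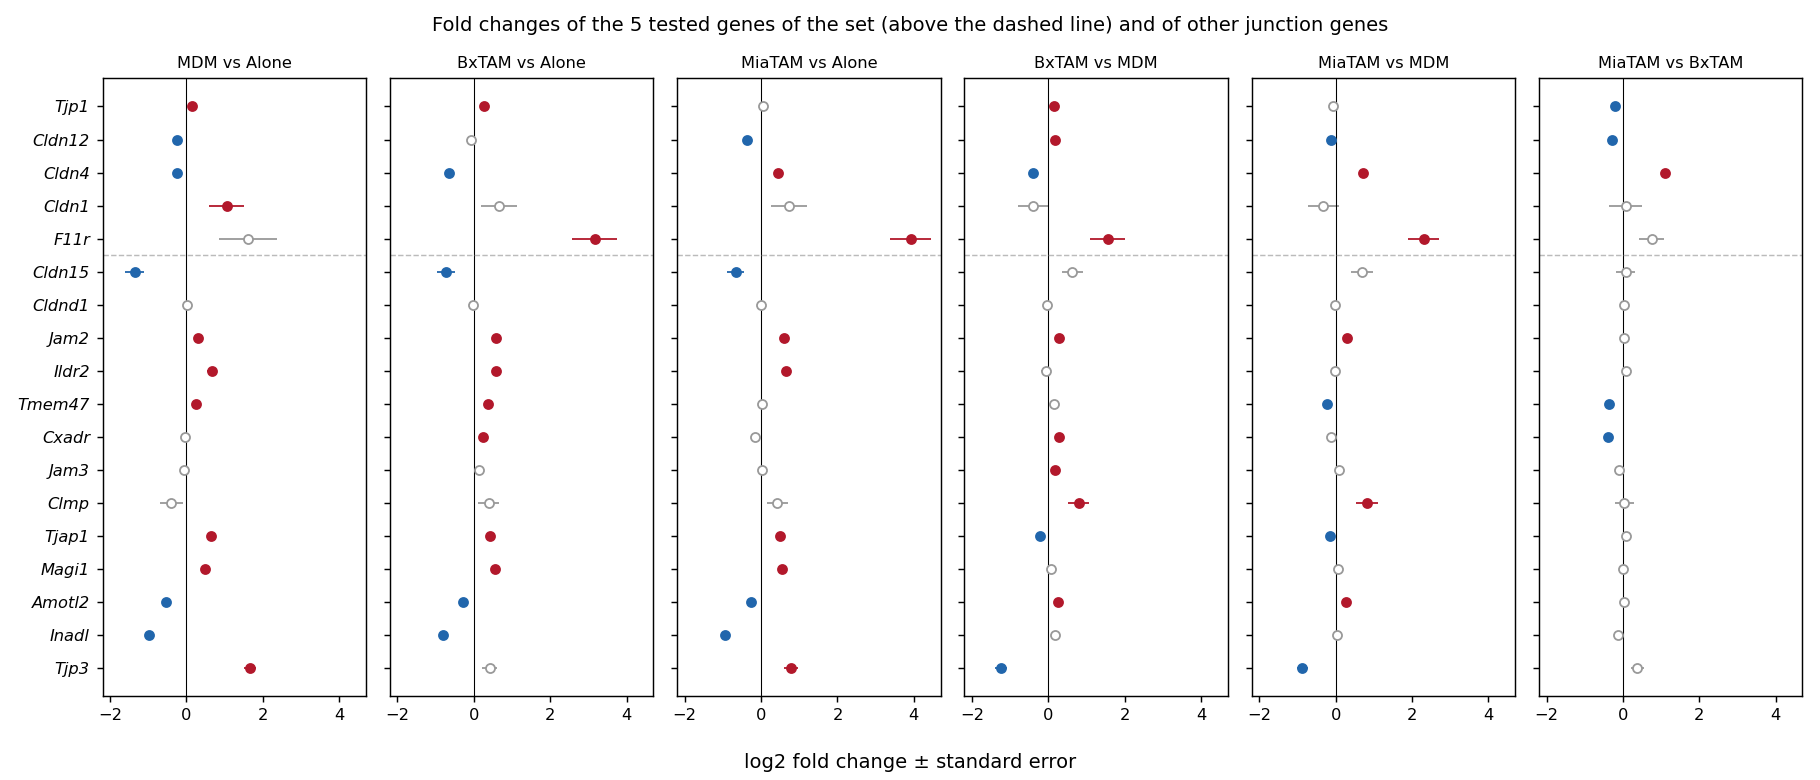
Log2 fold change ± standard error (horizontal axis) of the 5 tested genes of the set, above the dashed line, and of other junction genes, below it, in 6 comparisons; filled red and blue points are higher and lower at an adjusted p under 0.05 (edgeR), open points are not. Cldn4 lies left of 0 for BxTAM against MDM (-0.39) and right of 0 for MiaTAM against MDM (0.71), and Jam2 lies right of 0 in both. F11r entered the model only through BxTAM and MiaTAM libraries, where it was high, and Cldn1 mostly through co-culture libraries.

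Counted by comparison, the set of 10 was split in direction each time. The counts that follow come from the 5 genes that entered the model, use an adjusted p under 0.05, and are a description. F11r entered only through BxTAM and MiaTAM libraries, where it was high, so its calls carry no weight as a test. Cldn1 entered mostly through co-culture libraries, so its call carries no such weight either. With MDM against cells alone, 2 genes were higher (Tjp1, Cldn1, the latter lost in 11 of its alternatives) and 2 lower (Cldn12, Cldn4), where 32.0% of all 12360 tested genes were higher and 33.1% lower. With BxTAM against cells alone, 2 were higher (Tjp1, F11r) and 1 lower (Cldn4), beside 30.0% and 30.9% of all tested genes. With MiaTAM against cells alone, 2 were higher (Cldn4, F11r) and 1 lower (Cldn12), beside 31.4% and 33.7%. These 3 comparisons share the libraries of cells alone. With BxTAM against MDM, 3 were higher (Tjp1, Cldn12, F11r) and 1 lower (Cldn4), beside 17.4% and 17.3%. With MiaTAM against MDM, 2 were higher (Cldn4, F11r) and 1 lower (Cldn12), beside 19.8% and 21.1%; the Cldn12 difference of -0.12 ± 0.05 lost the threshold in 16 of its alternatives. With MiaTAM against BxTAM, 1 was higher (Cldn4) and 2 lower (Tjp1, Cldn12), beside 11% and 13.3%. The shares over all genes are large, and nothing about the set is read from its counts.

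The 65 other junction genes, of which 37 were tested, were split in the same way. Against cells alone, 16 were higher and 9 lower with MDM, 11 and 9 with BxTAM, and 14 and 11 with MiaTAM. Over all tested genes, 30.0% to 32.0% were higher and 30.9% to 33.7% lower in these comparisons. Between MiaTAM and BxTAM, 3 were higher with MiaTAM (Ybx3, Llgl1 and Llgl2) and 6 lower. Their median log2 change lay between -0.02 and 0.07 in the 6 comparisons, and the median over all tested genes lay within 0.00894 of 0. A total of 15 of these genes had no count in any library, among them Cldn5, Cldn11, Marveld2, Ildr1 and Crb3.

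Epcam itself had no count. Of 12 listed partners and processing genes of Epcam, 7 were tested, and 4 were higher and 1 lower than in cells alone with MDM, 4 and 1 with BxTAM, and 6 and 1 with MiaTAM. The 4 with MDM and with BxTAM were Spint1, Spint2, Cd44 and Cd9, and the lower gene was Adam17 in all 3 comparisons. Over all tested genes, 30.0% to 32.0% were higher and 30.9% to 33.7% lower in these comparisons. Spint1 had 3 counts in cells alone and passed the filter only through co-culture libraries. Spint2, an inhibitor of the protease matriptase that cleaves Epcam, was at 15.7 CPM in cells alone and rose 1.92-fold, 1.62-fold and 1.36-fold (edgeR, adjusted p = 1.04e-07, 9.2e-06 and 0.00119). Cd44, a hyaluronan receptor that associates with Epcam in carcinoma, rose from 1923 CPM to 2095, 2839 and 2660 (edgeR, adjusted p = 0.0396, 7.76e-09 and 1e-07). Adam17, a sheddase of Epcam, fell 1.40-fold with MDM, 1.13-fold with BxTAM and 1.26-fold with MiaTAM (edgeR, adjusted p = 1.85e-08, 0.00228 and 3.39e-06).

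The genes whose pattern over the 12 libraries was most like 3 of the set were named by the root mean square difference of centred log2 CPM, out of 11565 candidates. For Cldn4 these were the unnamed gene AABR07033465.1 (0.19), Dbn1, encoding the actin-binding protein drebrin (0.236), and LOC102551435 (0.241). Dbn1 averaged 138 CPM in cells alone, 123 with MDM, 119 with BxTAM and 161 with MiaTAM. For F11r they were Has1, a hyaluronan synthase (0.391), Nt5e, the ecto-nucleotidase CD73 (0.436), and Vcan, the proteoglycan versican (0.436). Has1 averaged 0.269, 0.636, 1.17 and 2.32 CPM in cells alone, MDM, BxTAM and MiaTAM. For Cldn1 they were Dcxr (0.363), Rsph9 (0.379) and Plcb1 (0.381), a likeness that rests on 4 to 31 counts of Cldn1 per library.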

How the data were processed

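Messenger RNA libraries were made with a stranded kit, per the labels' protocols. CASAVA, HISAT2, StringTie 1.3.0 and the build Rnor_6.0 were used, per the submitters' processing notes. The sources used here do not give the counting tool, strand setting or annotation release. The authors deposited raw counts per gene, and FPKM values that the authors scaled by gene length and library total, per the file headers. Groups were read from the labels. The genes of the set and all gene lists were chosen with earlier results of these data known. Of 176 listed symbols, 170 matched the table.

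Counts were analysed in edgeR 4.0.16 under R 4.3.3, with filterByExpr by group (12360 of 30957 genes kept, at least 10 counts in a library of median size, equal to 0.544 CPM), TMM scaling and 1 quasi-likelihood fit over all 12 libraries without a block. P-values were Benjamini-Hochberg adjusted over all tested genes and called at 0.05. The code was tested on simulated data. Library totals were 16555215 to 21506669 counts, and no 2 libraries of the same group agreed within sampling noise. Ratios of few counts carry exact 95% counting intervals.

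Beside the 10 genes, up to 6 genes per list with at least 1 CPM in some group and the smallest p were named. Snai2 and a few further genes behind small counts were named after their values were seen. A few listed genes are left out of the text and plots but remain in the counts over lists. The pattern likeness covered the 3 tested genes of the set with the widest range, 3 genes each. Promoters came from RefSeq (GRCr8, 9 of 10 genes matched). Alternatives were DESeq2 size factors and upper-quartile factors in edgeR, the DESeq2 1.42.0 Wald test, limma 3.58.1 on log2(FPKM + 1), no filter, only the 2 groups compared, a replicate block, and leaving out each library.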

Additional observations from a re-analysis of the deposited data

Results flagged for a closer look

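Of the 5 genes of the set that entered the model, 3 passed the threshold for a different answer to the 2 TAM kinds, each set against MDM co-culture. For Cldn4 the log2 effect of MiaTAM minus that of BxTAM was 1.10, with effects of 0.71 and -0.39. For Cldn12 the same difference was -0.29, with effects of -0.12 and 0.17. For Tjp1 it was -0.22, with effects of -0.07 and 0.14. In each case the difference equals the comparison of MiaTAM with BxTAM, since both effects share the MDM libraries. Ocln did not enter the model, and its counting ratio of MiaTAM to BxTAM was 2.63 (1.12 to 6.855). F11r stood at 1.69 (1.05 to 2.78) by the same ratio and missed the threshold in the main fit. The genes were chosen with these values known, so the differences are a description.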

How the results depend on the processing

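Over 565 recalculated values of the genes of the set, 531 kept their direction and side of the threshold, 31 lost the threshold, 3 gained it and 0 reversed; for the other named genes the figures were 5597, 150, 57 and 0 of 5804. All values of Cldn4 held. Among the weaker values, Cldn12 between MiaTAM and MDM lost its call in 16 alternatives (log2 -0.08 without MDM replicate 2) and Cldn1 between MDM and cells alone in 11. Tjp1 lost its call between MDM and cells alone without MDM replicate 1 (0.10), and between BxTAM and MDM without MDM replicate 3 (0.11). F11r lost its call between BxTAM and MDM under DESeq2 (1.60) and without MDM replicate 2 (1.34), gained one between MDM and cells alone without Alone replicate 3 (2.45), and between MiaTAM and BxTAM under limma (0.17 on the log2(FPKM + 1) scale). The calls of F11r are a description only, since it entered the model through the groups where it was high. The cause of these gains and losses was not tested. With 1 library left out, the number of genes of the set past the threshold was 3 to 4 for MDM, 3 for BxTAM and 3 for MiaTAM against cells alone, 3 to 4 and 2 to 3 for BxTAM and MiaTAM against MDM, and 3 between the TAM kinds. The replicate block left 3, 3 and 3 genes of the set against cells alone, 4 and 2 against MDM and 3 between the TAM kinds, and 25, 21 and 25 other junction genes against cells alone. Same-numbered libraries did not deviate together (mean correlation -0.011 over 18 pairs, at most 0.089), so the numbers were not taken to pair them. Under upper-quartile scaling the median log2 change of all genes lay within 0.0676 of 0, against within 0.00894 in the main fit. Depth limits the ratios of Ocln, F11r and Cldn6, which rest on 1, 3 and 11 counts in cells alone, and less so those of Cldn1, with 26.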
